A study of Mus musculus with 4 samples.

Results

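Neutrophil granule and receptor genes were followed in RNA from cells isolated as Langerhans cells. The set holds 9 genes chosen by symbol, which are Ngp, Camp, Ltf, Csf3r, Cxcr2, Trem1, Ly6g, Retnlg and Hdc, out of 55487 genes in the count table. Each symbol matched 1 row. Langerhans cells are the dendritic cells of the epidermis, and those measured here came from the ears of wild-type mice given either Vaseline as the control or imiquimod, an agonist of Toll-like receptor 7 that gives a psoriasis-like skin inflammation. Each treatment has 2 libraries of total RNA, called Vaseline 1 and 2 and imiquimod 1 and 2. Both groups share the wild-type genotype. Age, sex, dose and duration of treatment are not given in the sources used here, nor is how the cells were isolated. The labels do not say whether libraries of a treatment came from separate animals, so the p-values measure the spread among these samples only, and that spread may be technical. Where a pair of values is given for a treatment, library 1 comes first. Sample descriptions carry letter codes of unstated meaning that both Vaseline libraries share, while the imiquimod libraries have a different code each. If the codes mark batches, batch and treatment cannot be told apart.

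Neutrophils are short-lived granulocytes that leave the bone marrow under the growth factor G-CSF and enter inflamed skin along gradients of CXC chemokines. In psoriasis and in its imiquimod model they collect in the epidermis. Their granules are filled in an order that follows maturation: primary granules carry myeloperoxidase and serine proteases, secondary granules carry lactoferrin, cathelicidin and Ngp, and tertiary granules carry gelatinase. Messenger RNAs of granule proteins are made mostly in marrow precursors, while receptors such as Csf3r and Cxcr2 are transcribed in mature cells. Transcription factors of the C/EBP family and PU.1 are known regulators of granule and receptor genes of this lineage.

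The sequence upstream of the members was therefore searched for short matches to both kinds of factor. All 9 genes had a start site in the RefSeq promoter table (build GRCm38.p6). Within the 250 bases before the start, the letters TTNNGCAA, a core of C/EBP sites, occurred on either strand in 4 members (Retnlg, Ngp, Ltf and Ly6g) and in 9.56% of all 32851 windows of that length. The letters GAGGAAG, a core of PU.1 sites, occurred on either strand in Csf3r and Ly6g and in 10.6% of all windows. Matches to the 2 motifs did not overlap in the members. Ly6g has 2 listed start sites, and its longer stretch is printed. The stretches upstream of the 4 genes with a C/EBP-like match follow, with that of Trem1, in which neither set of letters occurred. They run 5′ to 3′ on the gene's strand, matches to either motif are in capitals, and bases inside the annotated gene are left out. Retnlg is chr16:48872358-48872607, Ngp chr9:110419558-110419746, Ltf chr9:111019042-111019270, Ly6g chr15:75155011-75155239 and Trem1 chr17:48232489-48232738, all on the plus strand.
Retnlg: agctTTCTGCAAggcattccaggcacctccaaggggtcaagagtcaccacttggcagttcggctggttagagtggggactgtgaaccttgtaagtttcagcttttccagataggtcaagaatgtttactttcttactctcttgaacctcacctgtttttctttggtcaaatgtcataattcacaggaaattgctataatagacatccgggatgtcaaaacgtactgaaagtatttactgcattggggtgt
Ngp: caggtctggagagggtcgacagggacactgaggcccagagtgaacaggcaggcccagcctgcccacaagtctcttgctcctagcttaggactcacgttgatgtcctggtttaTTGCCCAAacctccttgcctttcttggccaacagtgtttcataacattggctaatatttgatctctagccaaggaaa
Ltf: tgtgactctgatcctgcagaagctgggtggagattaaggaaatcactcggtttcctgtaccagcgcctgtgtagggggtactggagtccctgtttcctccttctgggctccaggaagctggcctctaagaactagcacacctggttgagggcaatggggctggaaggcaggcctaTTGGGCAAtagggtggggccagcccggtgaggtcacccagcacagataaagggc
Ly6g: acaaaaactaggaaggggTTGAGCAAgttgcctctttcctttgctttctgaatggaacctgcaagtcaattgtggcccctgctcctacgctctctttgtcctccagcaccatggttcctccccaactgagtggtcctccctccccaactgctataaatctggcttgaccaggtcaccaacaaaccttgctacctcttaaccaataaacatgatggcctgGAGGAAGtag
Trem1: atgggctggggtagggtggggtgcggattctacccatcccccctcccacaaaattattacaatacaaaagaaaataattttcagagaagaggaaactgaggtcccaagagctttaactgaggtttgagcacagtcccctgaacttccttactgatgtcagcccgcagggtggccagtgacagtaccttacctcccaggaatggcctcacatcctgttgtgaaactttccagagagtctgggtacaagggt
The Retnlg match, TTCTGCAA, began 246 bases before the start site. In Ngp, TTGCCCAA began 138 bases before it, and TTGGGCAA began 11 bases before it, in the part left out above. The same 8 letters, TTGGGCAA, began 75 bases before the Ltf start. A match describes the letters alone. No binding was measured.

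The Vaseline libraries totalled 41998172 and 76028955 counts, the imiquimod libraries 14902782 and 20690182. Levels are given as TMM-normalised CPM, counts scaled to a common library total that is corrected for composition. Reads also lay over genes that are not known to be used in skin. The median over 1473 olfactory and vomeronasal receptor genes, in TMM-normalised CPM per exonic kilobase, was 0.394 and 0.157 for Vaseline against 0.508 and 0.771 for imiquimod. This median is called the background, and a gene's counts per exonic kilobase over it are called its ratio to background. The labelled cell type was present by its markers: langerin (Cd207) stood at 2255 and 6884 CPM for Vaseline against 1201 and 575 CPM for imiquimod. Epcam, a surface marker of the same cells, was at 274, 544, 238 and 55.8 CPM in that order. The basal keratins Krt14 and Krt5 were also high, at 1726 CPM or more and 1160 CPM or more in every library. All libraries thus hold transcripts of keratinocytes beside those of Langerhans cells. Mitochondrially encoded transcripts, summed over 13 genes, were at 8244 and 14073 CPM with Vaseline and 3592 and 4673 CPM with imiquimod. In bulk RNA, fewer cells of a type and less RNA per cell cannot be told apart.

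All 9 members were higher in imiquimod 2 than in any other library by CPM, as were 42.7% of all genes tested. Summed over the members, the level was 18.0 and 14.1 CPM in the Vaseline libraries, 24.3 CPM in imiquimod 1 and 94.3 CPM in imiquimod 2. The imiquimod libraries therefore differed from each other more than imiquimod 1 differed from either Vaseline library. Between treatments, 8 of the 9 members had groups that did not overlap and were higher with imiquimod, where 30.5% of all 39439 genes tested did the same. The exception was Camp. By the edgeR quasi-likelihood test with Benjamini-Hochberg adjustment, 1 of the 9, Hdc, passed the threshold of 0.05, against 0.0634% of all genes tested in that direction. None was lower, also at an unadjusted p under 0.05, where 0.137% of genes were lower after adjustment. No member had lower groups without overlap, where 20.9% of genes did. Before adjustment, 6 of the 9 had p under 0.05 and were higher, where 8.63% of all genes were higher and 5.1% lower at that p. The share of genes called higher itself depended on single libraries: it was 6.42% without Vaseline 1 and 0.0101% without imiquimod 2. The median log2 fold change of the members was 1.80, and that of all genes tested was 0.41. All 9 genes passed the filter on low counts.

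**Figure D1:**
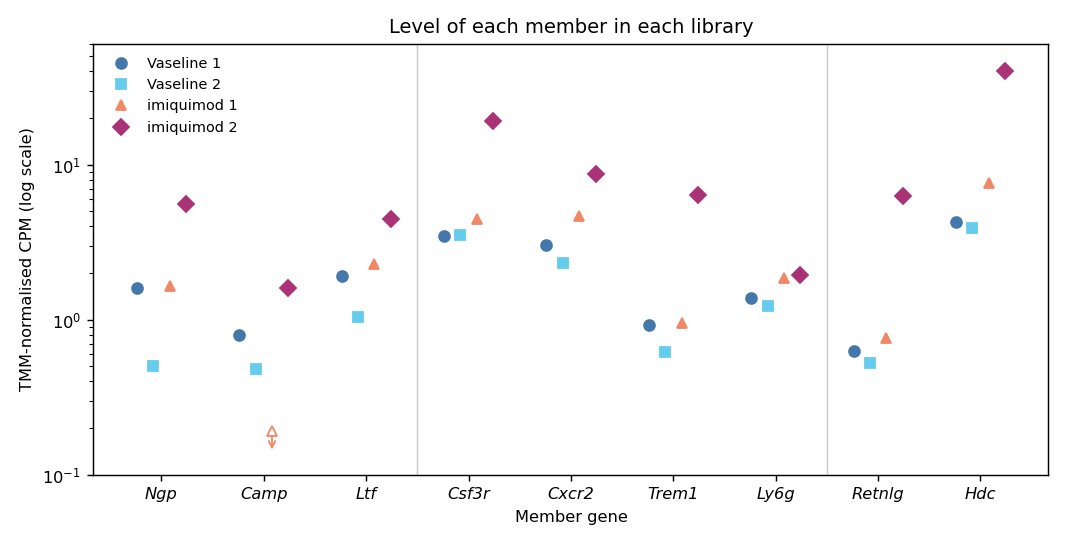
TMM-normalised CPM of each neutrophil gene in each of the 4 libraries on a log axis, grouped as granule proteins (left), surface receptors (middle), and Retnlg and Hdc (right). Each point is 1 library, and the open symbol with an arrow marks a count of 0, drawn at the floor of 3 counts (0.192 CPM). Imiquimod 2 is the highest point for all 9 genes, from 1.61 CPM for Camp to 40.4 CPM for Hdc.

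Ngp, Camp and Ltf encode proteins of the secondary granule. Ngp, neutrophilic granule protein, is a cathelicidin-like protein encoded on chromosome 9 (110419747 to 110423012, plus strand, 4 exons). It had 64 and 23 counts for Vaseline against 26 and 191 counts for imiquimod. As CPM these were 1.60, 0.506, 1.66 and 5.57. Imiquimod 1 lay level with Vaseline 1, and imiquimod 2 stood above both. The means were 1.05 ± 0.771 CPM with Vaseline and 3.62 ± 2.77 CPM with imiquimod (SD, n = 2 each), and the log2 fold change was 1.91 (SE 0.77), with an adjusted p of 0.289 by edgeR. Without imiquimod 2 it was 0.66 (adjusted p = 0.99993) and without Vaseline 2 it was 1.20 (0.99988). Without Vaseline 1 it was 2.76 and passed the threshold (0.0443), in a fit that called 6.42% of all genes higher.

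Camp encodes the precursor of the antimicrobial peptide cathelicidin (chromosome 9, 109847379 to 109849617, minus strand, 4 exons). Its counts were 32 and 22 in the Vaseline libraries, 0 in imiquimod 1 and 55 in imiquimod 2. At this depth a count of 0 allows up to 3 counts, or 0.192 CPM, in imiquimod 1, which is below the 0.799 and 0.484 CPM of Vaseline 1 and 2. The groups overlapped, since imiquimod 2 reached 1.61 CPM. The edgeR log2 fold change was 0.67 (SE 0.95), with an adjusted p of 0.685, and its sign depended on the setting, being -0.23 by limma-voom. Counting error alone gives a 95% Poisson interval of 41.4 to 71.6 counts around the 55 in imiquimod 2.

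Ltf encodes lactoferrin, an iron-binding protein (chromosome 9, 111019271 to 111042767, plus strand, 18 exons). Its libraries held 77, 47, 36 and 152 counts, or 1.92, 1.03, 2.30 and 4.44 CPM, in the order Vaseline 1, Vaseline 2, imiquimod 1 and imiquimod 2. The groups did not overlap, but imiquimod 1 exceeded Vaseline 1 by less than the difference between the Vaseline libraries. The log2 fold change was 1.26 (SE 0.74), with an adjusted p of 0.405 by edgeR, and 0.62 without imiquimod 2. Ltf also lay closest to background of the granule proteins, at ratios of 1.41, 1.91, 1.31 and 1.67 in the same order. A gene of its length at background would have 91.1 counts in imiquimod 2, against the 152 observed.

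Csf3r and Cxcr2 are the receptors through which G-CSF and CXC chemokines act on neutrophils. Csf3r (chromosome 4, 126024550 to 126044440, plus strand, 17 exons) had 139 and 159 counts for Vaseline against 70 and 651 counts for imiquimod. These gave 3.47, 3.50, 4.47 and 19.0 CPM. The Vaseline libraries lay close together at 3.48 ± 0.0220 CPM, while the imiquimod libraries spread to 11.7 ± 10.3 CPM (SD, n = 2 each). Imiquimod 2 was 4.25 times imiquimod 1. The log2 fold change of Csf3r was 1.80 (SE 0.62), with an adjusted p of 0.208 by edgeR. Without imiquimod 2 it was 0.32.

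Cxcr2 (chromosome 1, 74153989 to 74161246, plus strand, 2 exons) had 122, 105, 73 and 299 counts in the same order of libraries, or 3.04, 2.31, 4.66 and 8.73 CPM. Both imiquimod libraries lay above both Vaseline libraries, and imiquimod 2 was 1.87 times imiquimod 1, a smaller gap than for Csf3r. The log2 fold change was 1.37 (SE 0.65), with an adjusted p of 0.344 by edgeR, and 0.77 without imiquimod 2. Short reads can be shared between genes here: 10.7% of the 50-base words in Csf3r transcripts and 6.68% of those in Cxcr2 transcripts also occurred in transcripts of other genes. For the other 7 members this share was at most 0.448%, the value of Ly6g, whose shared words lay in Ly6i and Gm28116. How reads with several matches were counted is not given in the sources used here. No exonic base of any member was covered by an exon of another gene.

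Trem1 encodes a receptor that amplifies inflammatory signals in neutrophils and monocytes through the adaptor Tyrobp (chromosome 17, 48232768 to 48246924, plus strand, 4 exons). It had 37 and 28 counts with Vaseline, 15 in imiquimod 1 and 217 in imiquimod 2. The first 3 libraries gave 0.923, 0.616 and 0.958 CPM and imiquimod 2 gave 6.33 CPM, so the difference between treatments was carried by 1 library. The log2 fold change of Trem1 was 2.39 (SE 0.79), with an adjusted p of 0.190 by edgeR, and without imiquimod 2 it was 0.29. In those 3 libraries Trem1 was at or near background, with ratios of 0.781, 1.31 and 0.630. In imiquimod 2 its ratio was 2.74. Tyrobp, the adaptor, was lower in both imiquimod libraries by CPM, with 58.4 and 123 for Vaseline against 22.3 and 20.1 for imiquimod.

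Ly6g encodes the GPI-anchored surface protein by which mouse neutrophils are usually sorted (chromosome 15, 75155240 to 75159126, plus strand, 4 exons). It had 55, 56, 29 and 67 counts in the 4 libraries, or 1.37, 1.23, 1.85 and 1.96 CPM. The imiquimod libraries lay above the Vaseline libraries, at 1.90 ± 0.0726 CPM against 1.30 ± 0.0989 CPM (SD, n = 2 each), and differed from each other by 1.06-fold. Ly6g was thus the member least tied to imiquimod 2 by CPM. The log2 fold change was 0.56 (SE 0.82), with an adjusted p of 0.698 by edgeR. Counting error is wide at such counts, with a 95% Poisson interval of 19.4 to 41.6 around the 29 counts of imiquimod 1.

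Retnlg encodes resistin-like gamma, a secreted protein made by mouse neutrophils and their marrow precursors (chromosome 16, 48872621 to 48874496, plus strand, 4 exons). Its counts were 25, 24 and 12 in Vaseline 1, Vaseline 2 and imiquimod 1, and 214 in imiquimod 2. As CPM the first 3 were 0.624, 0.528 and 0.767, and imiquimod 2 was 6.25. Imiquimod 2 was 8.15 times imiquimod 1, the widest gap between the imiquimod libraries among the 8 members with counts in both. Retnlg had the largest log2 fold change of the 9, at 2.75 (SE 0.83), with an adjusted p of 0.127 by edgeR. Without imiquimod 2 it was 0.37.

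Hdc encodes histidine decarboxylase, the enzyme that makes histamine, which is expressed in mast cells and basophils and also in neutrophils and other myeloid cells (chromosome 2, 126593667 to 126619299, minus strand, 12 exons). It had 172 and 177 counts with Vaseline, 120 in imiquimod 1 and 1385 in imiquimod 2. These were 4.29, 3.90, 7.67 and 40.4 CPM. By CPM, both imiquimod libraries exceeded both Vaseline libraries, imiquimod 1 by less than 1 log2 unit and imiquimod 2 by far more. Per exonic kilobase, Hdc lay below the 95th percentile of the receptor genes in Vaseline 1, Vaseline 2 and imiquimod 1. Its level in those libraries was thus within the spread of the background genes. Hdc rose by 2.59 on the log2 scale (SE 0.63), from 4.09 ± 0.280 to 24.04 ± 23.2 CPM (SD, n = 2 each), with an adjusted p of 0.0269 by edgeR. The SD of the imiquimod libraries was thus nearly as large as their mean. Hdc supplied 42.9% of all counts on the 9 members in imiquimod 2, against 23.8%, 27.6% and 31.5% in Vaseline 1, Vaseline 2 and imiquimod 1.

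The Hdc call held in 4 of the 16 other settings in which the gene was tested. It held with upper-quartile factors (adjusted p = 0.000474), by limma-voom (0.0427), with at least 10 counts required in each library (0.0021) and without imiquimod 1 (0.0160). It was lost by DESeq2 (0.0538), with RLE factors (0.182) and with library totals alone (0.240). Leaving out imiquimod 2 took the Hdc log2 fold change to 0.87 with an adjusted p of 0.99993, and leaving out Vaseline 2 gave 2.49 with 0.99988. Without Vaseline 1 it was 2.54 with 0.0902. The direction of Hdc was positive in all of these settings.

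Members differed in level per length as well as in change. Per exonic kilobase, Ly6g led in Vaseline 1, Vaseline 2 and imiquimod 1, at 1.46, 1.31 and 1.97 CPM per kilobase. In imiquimod 2 the order was Retnlg at 10.5 CPM per kilobase, Hdc at 6.33, Csf3r at 5.26, Ngp at 4.56 and Cxcr2 at 2.86, with Ly6g eighth at 2.08. Camp, Trem1 and Ly6g were within 0.05 of each other there (2.12, 2.11 and 2.08 CPM per kilobase), which is inside their counting error. Trem1 was last or next to last in the other 3 libraries.

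Read against the background of each library, the order of the libraries changed. None of the 9 members had groups that did not overlap in ratio to background, where 6.63% of 39310 genes were higher with imiquimod and 50.8% lower. Imiquimod 2 was the highest library for 5 members, against 8.58% of all genes, and Vaseline 2 for the other 4, which were Cxcr2, Camp, Ltf and Ly6g. Ly6g was at 3.69 and 8.35 times background for Vaseline against 3.87 and 2.69 times for imiquimod, so that imiquimod 2 was its lowest library. For Cxcr2 the ratios were 2.53, 4.84, 3.01 and 3.71, with Vaseline 2 the highest. For Csf3r they were 2.44, 6.19, 2.44 and 6.83, so that Vaseline 2 and imiquimod 2 both stood above the other libraries.

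Retnlg, Trem1 and Hdc were at least 2 times as high in imiquimod 2 as in each other library on this scale too. Genes meeting that bound made up 0.595% of all genes with a ratio. By CPM the bound was met by 6 members, and by 9.3% of genes tested. Retnlg was at 2.67, 5.69 and 2.55 times background in Vaseline 1, Vaseline 2 and imiquimod 1, and at 13.7 times in imiquimod 2. Hdc was at 1.70, 3.89, 2.36 and 8.21 times, and at background a gene of its length would have 169 counts in imiquimod 2 against the 1385 seen. Ngp came next, with a ratio of 5.92 in imiquimod 2 against 3.31 in Vaseline 1, its next highest library. Receptor genes themselves spread around their median, and their 95th percentile lay at 2.62, 4.02, 2.61 and 2.48 times it in Vaseline 1, Vaseline 2, imiquimod 1 and imiquimod 2. Above that percentile were 4, 5, 3 and 8 of the 9 members in the same order. Ltf was the member still below it in imiquimod 2, and it was below it in every library. Hdc and Trem1 were above that percentile in imiquimod 2 alone.

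**Figure D2:**
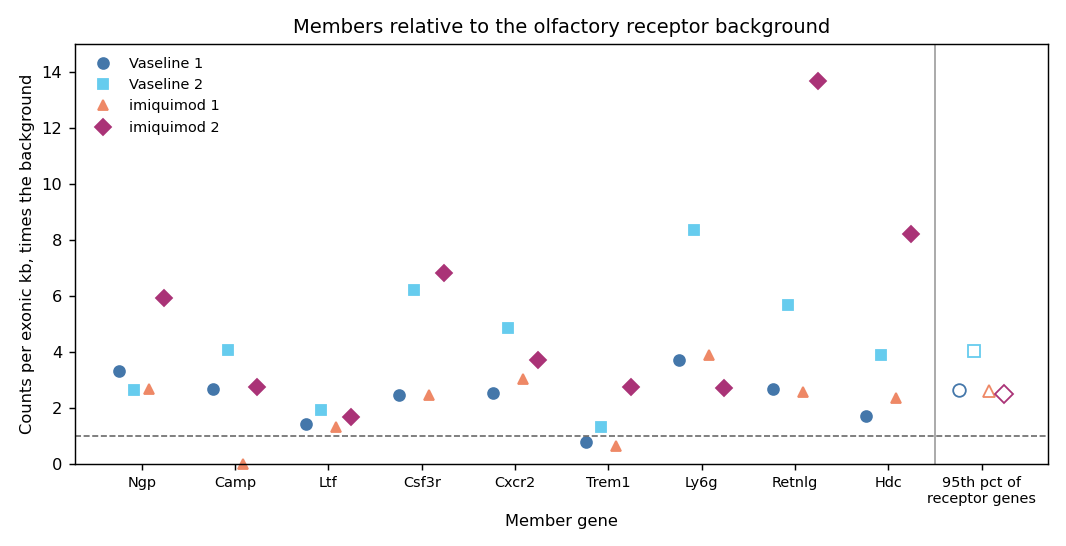
Counts per exonic kilobase of each neutrophil gene in each library, as a multiple of that library's median over olfactory and vomeronasal receptor genes (dashed line at 1). Open symbols on the right mark the 95th percentile of those receptor genes. Retnlg (13.7), Hdc (8.21) and Trem1 (2.74) have their highest points in imiquimod 2, at least 2 times any other library, while Ly6g has its highest point in Vaseline 2 (8.35).

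Scaling set the size of every fold change. When libraries were scaled to the receptor background in place of TMM, the median log2 fold change moved from 0.41 to -0.93 over all genes and from 1.80 to 0.52 over the members. Retnlg then stood at 1.55, Hdc at 1.28 and Trem1 at 1.18, the 3 highest of the set, followed by Ngp at 0.70, Csf3r at 0.52 and Cxcr2 at 0.07. Ltf (-0.0051), Camp (-0.58) and Ly6g (-0.81) changed sign. With library totals alone, the median was 2.84 for the members and 1.30 for all genes. Without imiquimod 2, the medians were 0.47 and 0.08, and none of the 9 members reached an unadjusted p under 0.05 by edgeR.

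**Figure D3:**
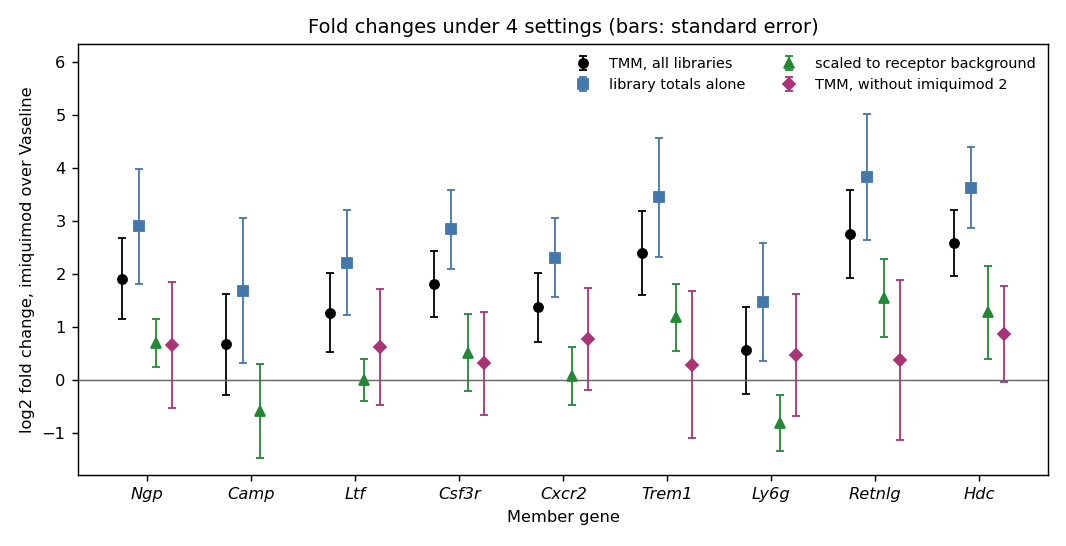
The log2 fold change of each neutrophil gene, imiquimod over Vaseline, with its standard error, under TMM scaling, library totals alone, scaling to the receptor background, and TMM without imiquimod 2. Camp is not drawn in the last setting because its remaining imiquimod count was 0. Values without imiquimod 2 lie between 0.29 and 0.87 for the 8 genes drawn, and Ltf, Camp and Ly6g fall below 0 when scaled to the receptor background.

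Other proteins of neutrophil granules were compared from lists. Of 17 secondary and tertiary granule genes tested, 2 rose, 1 fell and 14 did not pass the edgeR test. At an unadjusted p under 0.05 by that test, 4 were higher (8.63% of all genes) and 5 lower (5.1%). The list was thus split in direction, and its median log2 fold change was 0.41, the same as over all genes. Lcn2, the iron-siderophore carrier lipocalin 2, rose by 3.49 (SE 0.66, adjusted p = 0.000398), with 2.15 and 4.03 CPM for Vaseline against 18.8 and 50.2 CPM for imiquimod. Both imiquimod libraries were well above both Vaseline libraries. Inflamed keratinocytes are also known to make Lcn2. Mmp8, neutrophil collagenase, rose by 3.45 (SE 0.69, adjusted p = 0.0012), with 1.87, 0.506, 2.75 and 21.8 CPM. Like Retnlg and Trem1 it was high in imiquimod 2 alone, where its ratio to background was 11.7 and 5.23 times that of any other library. Mmp9, the gelatinase of tertiary granules, which Langerhans cells also make, fell by 3.59 (SE 0.76, adjusted p = 0.0035), from 106 and 156 CPM to 8.88 and 12.6 CPM. These metalloproteinases thus went in opposite directions. Without imiquimod 2 the fold changes were 2.54 for Lcn2, 1.21 for Mmp8 and -3.93 for Mmp9, each with an adjusted p of 0.99993. Leaving out other libraries also ended calls. Lcn2 was 3.01 without Vaseline 1 (adjusted p = 0.0574) and 4.01 without Vaseline 2 (0.310). Mmp8 was 2.72 without Vaseline 2 (0.99988). Mmp9 was -3.29 without Vaseline 2 (0.393) and -3.37 without imiquimod 1 (0.335).

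Of the primary granule genes, none of the 6 tested passed the edgeR test in either direction, none had an unadjusted p under 0.05, and 3 were positive and 3 negative. Elane, neutrophil elastase, had counts of 28, 0, 0 and 13 in Vaseline 1, Vaseline 2, imiquimod 1 and imiquimod 2. Mpo, myeloperoxidase, was at 11.5, 8.98, 4.79 and 5.72 CPM. Its ratios to background were 8.48, 16.7, 2.76 and 2.17, so that it was higher in both Vaseline libraries, and 14.9% of its exonic bases are covered by exons of Gm11505. None of the 6 was highest in imiquimod 2 by ratio to background.

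Among cytosolic proteins abundant in neutrophils, 7 genes were tested, of which 1 rose and 1 fell. At an unadjusted p under 0.05 by edgeR, 3 were higher (8.63% of all genes) and 1 lower (5.1%). S100a8, a subunit of calprotectin, rose by 2.69 (SE 0.63, adjusted p = 0.0193), at 0.774 and 9.22 CPM for Vaseline against 16.2 and 48.1 CPM for imiquimod. Its partner S100a9 was at 0.774, 31.0, 39.2 and 152 CPM, with a log2 fold change of 2.59 (SE 0.69) and an adjusted p of 0.0613. By ratio to background, Vaseline 2 was level with imiquimod 2 for both: 84.8 against 89.9 for S100a8, and 378 against 377 for S100a9. Keratinocytes of inflamed skin also make this pair. Stfa3, a stefin protease inhibitor, fell by 3.32 (SE 0.69, adjusted p = 0.0026), from 17.6 and 90.7 CPM to 8.24 and 3.15 CPM. G0s2, a lipase inhibitor, resembled Retnlg, with 0.699, 0.660, 0.767 and 6.89 CPM and a log2 fold change of 2.63 (adjusted p = 0.133). Another stefin, Stfa2l1, was left out by the filter, with counts of 7, 0, 0 and 95. Without imiquimod 2 the log2 fold changes were 1.59 for S100a8 and -2.79 for Stfa3, both with an adjusted p of 0.99993. The S100a8 call was also lost without Vaseline 1, at 1.71 (0.258), and the Stfa3 call without Vaseline 2, at -1.64 (0.99988), and without imiquimod 1, at -4.11 (0.236).

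Of 20 further receptors of neutrophils, none passed the edgeR test, and 8 had an unadjusted p under 0.05, 7 of them higher (8.63% of all genes) and 1 lower (5.1%). Of the 20, 13 had positive fold changes and 7 negative, and the median log2 fold change was 0.29, below that of all genes. Selplg, the gene lower at that p, was at 75.2 and 177 CPM for Vaseline against 34.9 and 53.0 CPM for imiquimod. Il1r2, the most abundant of the list, was also negative, at 855 and 2355 CPM for Vaseline against 525 and 411 CPM for imiquimod. Fcgr4, an activating receptor for IgG, had the smallest p of the list, at 1.20 and 0.440 CPM for Vaseline against 3.07 and 7.97 CPM for imiquimod, for a log2 change of 2.84 (SE 0.76) at an adjusted p of 0.0642. Cd300lf, an inhibitory receptor, was at 4.42, 3.48, 5.11 and 23.8 CPM in that order, close in shape to Csf3r. The formyl peptide receptor Fpr2 was at 0.774, 0.176, 1.21 and 3.44 CPM. Clec4e, a C-type lectin also found on macrophages, was high by CPM in both imiquimod libraries, at 63.0 and 58.6 CPM against 13.3 and 21.9 CPM. By ratio to background it was highest in Vaseline 2, at 6.77 and 28.1 for Vaseline against 25.0 and 15.3 for imiquimod. Scaled to the receptor background, its log2 fold change was 0.28.

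Ligands and growth factors of these receptors were measured in the same libraries. None of the 11 tested passed the edgeR test, 1 had an unadjusted p under 0.05, and 10 had positive fold changes, with a median of 0.87. Csf3, which encodes G-CSF, the ligand of Csf3r, was at 0.774 and 0.264 CPM with Vaseline and at 1.79 and 4.14 CPM with imiquimod, for a log2 change of 2.63 (SE 0.87) at an adjusted p of 0.190. Cxcl1, a ligand of Cxcr2, was at 25.7, 53.1, 101 and 62.6 CPM, highest in imiquimod 1. Cxcl2, another ligand of Cxcr2 and more abundant than Cxcl1, was the gene with a negative fold change, at 367, 960, 418 and 299 CPM, highest in Vaseline 2 and lowest in imiquimod 2. Il1b was at 105, 347, 588 and 723 CPM. Scaled to the receptor background, Cxcl1 (-0.52) and Il1b (-0.23) changed sign.

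Relatives of the members were compared as well. Retn, which encodes resistin, was at 1.25, 0.330, 1.66 and 3.91 CPM, and Retnla had counts of 104, 76, 0 and 42. None of the 3 resistin genes passed the edgeR test, and 2 had an unadjusted p under 0.05, both higher. None of the 7 genes of the TREM family and its adaptors passed it either, with a median log2 fold change of 0.01 and 1, Tyrobp, at an unadjusted p under 0.05. The same held for 10 genes of the Ly6 family, none at an unadjusted p under 0.05, although 9 were positive and their median was 0.97. Of 7 transcription factors of the lineage none passed, and 1, Spi1, was lower at an unadjusted p under 0.05. Cebpe, needed for secondary granule genes, had 50, 13, 12 and 17 counts. In imiquimod 2 that was 0.519 times background. Spi1, which encodes PU.1 and is also expressed in Langerhans cells, was at 89.5 and 235 CPM for Vaseline against 41.3 and 33.8 CPM for imiquimod.

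Markers of other cells that express some of the members had the following levels, and their part in the members' values was not tested. Hdc is shared with mast cells and basophils. None of 15 such genes tested passed the edgeR test, 1 had an unadjusted p under 0.05, their median log2 fold change was 0.85, and their summed level was 45.1 and 40.0 CPM for Vaseline against 53.9 and 68.3 CPM for imiquimod. Tpsab1, a mast cell tryptase, was the gene with that p, at 0.749 and 0.286 CPM with Vaseline and 1.66 and 2.60 CPM with imiquimod. Its groups did not overlap in ratio to background either (0.907 and 0.872, then 1.56 and 1.61), where 6.63% of genes were higher with imiquimod. Each of these ratios was below the 95th percentile of the receptor genes in its library (2.62, 4.02, 2.61 and 2.48). Kit, the stem cell factor receptor, was at 13.1, 19.2, 23.8 and 26.8 CPM, and Fcer1a was at 0 in every library. The mast cell proteases Cma1 and Mcpt4 reached 1.72 and 1.90 CPM in imiquimod 2, at 2.05 and 2.22 times background, and basophil Mcpt8 reached 1.31 CPM at 1.71 times background. Trem1 is shared with monocytes. Of 14 monocyte and macrophage markers none passed the test, 6 were positive and 8 negative. An unadjusted p under 0.05 was reached by 3, all lower (5.1% of all genes). The 14 summed to 1363 and 2636 CPM in the Vaseline and 576 and 634 CPM in the imiquimod libraries. Eosinophil markers, of which 8 were tested and none passed, were all positive, with a median log2 fold change of 1.05. Of the 8, 3 had an unadjusted p under 0.05, all higher (8.63% of all genes). The 8 summed to 13.6, 9.91, 16.4 and 25.4 CPM. Of 13 Langerhans markers none passed, 12 were negative, and 3 had an unadjusted p under 0.05, all lower. The 13 summed to 23468 and 61827 CPM with Vaseline and 8704 and 7221 CPM with imiquimod. Of 8 T cell genes none passed, and 2 had an unadjusted p under 0.05, both lower. Of 5 B cell genes, 4 were positive and 1 negative, with a median log2 fold change of 0.71. At an unadjusted p under 0.05, 1 was higher and 1 lower. The lower one, the immunoglobulin heavy chain gene Ighm, fell by 3.36 (SE 0.69, adjusted p = 0.0020 by edgeR). That call was kept in 5 of 17 other settings. Leaving out 1 library gave log2 fold changes of Ighm from -3.94 to -2.56.

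**Figure D4:**
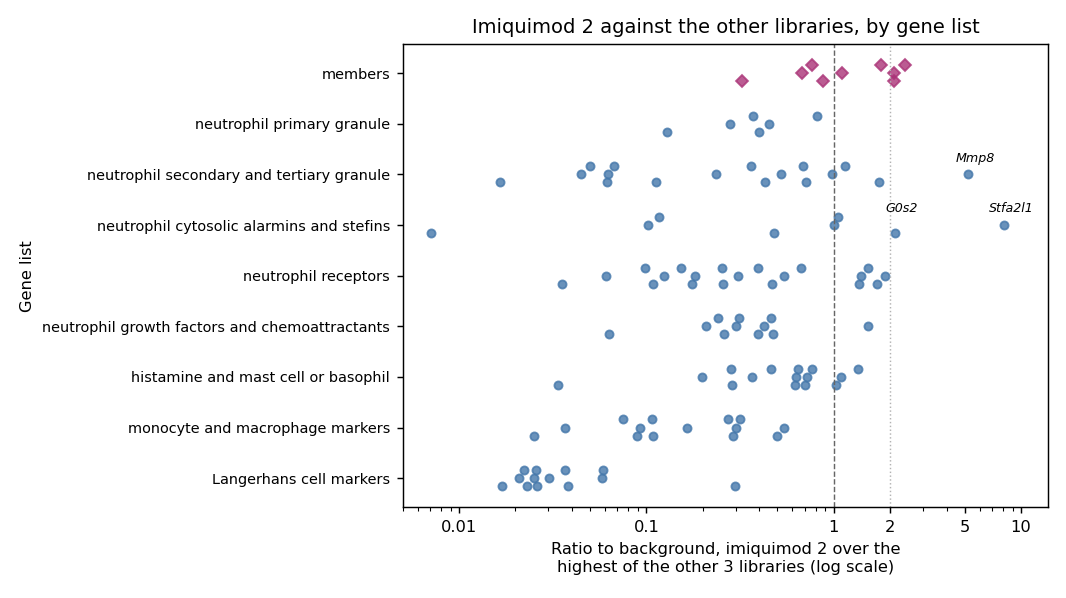
Ratio to background in imiquimod 2 over the highest ratio among the other 3 libraries, for each gene of the members (diamonds) and of 8 lists (circles), on a log axis with dashed and dotted lines at 1 and 2. Genes at 0 in imiquimod 2 are not drawn. Outside the members, Mmp8 (5.23), G0s2 (2.12) and Stfa2l1 pass 2 among the lists drawn, and all Langerhans markers lie below 1.

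The genes closest to the members in pattern were sought by the distance of their centred log2 levels over the 4 libraries from the median member. Among 12061 genes of at least 5 CPM on average, the nearest 8 were Ntng2, Flt4, Apod, Kcna6, Pcdhb22, Ankfn1, F10 and Abca8b, at distances of 0.255 to 0.369. The members' own distances ran from 0.412 to 1.40. That bound on level is met by 2 of the 9 members and by 40 of 70 genes on the neutrophil lists, so the search did not cover neutrophil genes of lower level. None of the 8 is on a neutrophil list. Ntng2, a netrin of neurons, was at 3.42, 3.17, 4.09 and 13.3 CPM, and the potassium channel gene Kcna6 at 2.99, 2.44, 4.34 and 10.5 CPM. Against background the 8 averaged 1.75 to 4.51 times, and none was 2 times as high in imiquimod 2 as in each other library. Genes outside the neutrophil lists also had a pattern that is low, low, low and high by CPM over the 4 libraries. The 8 were picked as the nearest of 12061, so their closeness does not measure how common that pattern is. The members were not picked by distance, so the 2 ranges of distance are not alike.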

How the data were processed

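RNA from isolated mouse ear Langerhans cells was measured in 2 Vaseline and 2 imiquimod libraries. Per the labels' protocols, libraries were made with a stranded total RNA kit for small inputs. The submitters' processing notes name GRCm38 and the tools HISAT2, StringTie, SAMtools and Trimmomatic. Versions, annotation, strand setting and the treatment of reads with several matches are not given in the sources used here. The authors deposited 1 count table of whole numbers per gene, not scaled to depth, per the file headers and values.

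The groups were compared with edgeR 4.0.16 (R 4.3.3; filterByExpr with a minimum count of 10 and minimum total of 15, TMM factors, the newer quasi-likelihood form, two-sided), with Benjamini-Hochberg adjustment over 39439 genes. The SE was taken from the log2 fold change and the F statistic. The labels give no pairing, so no block was used. CPM values are counts scaled to TMM-corrected totals. Exon lengths, positions and overlaps came from GENCODE vM21 (GRCm38). The background is the median count per exonic kilobase over 1473 receptor genes, and genes whose mean ratio to it reached 5 are called genes above background. Intervals (95%, exact Poisson) and the floor of 3 counts cover counting error only, as reads carry no molecular identifiers and may repeat a molecule. They also assume that each count in the deposited table is a tally of reads, which was not tested. Named genes are the 9 members, up to 4 genes of smallest p per list with every list gene past the threshold, the 8 genes nearest in pattern (log2 of CPM + 0.5, model names left out), and Cd207, Epcam, Krt14 and Krt5. Some genes that met the rule are given only in list counts. Genes of known role in a list (Elane, Cebpe, Fcer1a, Stfa2l1, Mcpt4, Cxcl2, Kit, Selplg, Il1r2) were named after their values were seen. Members and lists were chosen with earlier results of these data known. Alternatives were other scalings, DESeq2 1.42.0, limma-voom (limma 3.58.1), other filters, a replicate block and leaving out each library.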

Additional observations from a re-analysis of the deposited data

How the results depend on the processing

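Of 144 member values over 17 other settings, 126 kept their direction and side of the threshold, 12 (all Hdc) lost the call, 1 (Ngp) gained it and 5 reversed. Of 350 values of 21 named list genes, 263 kept both, 70 lost the call, 15 gained it and 2 reversed. In these tallies a value without an adjusted p was counted as not called, though it has no side of the threshold. By DESeq2 this covers every member other than Hdc and some list genes, among them Mmp8, counted as a lost call. The reversed values were Camp -0.23 by limma-voom and -7.43 without imiquimod 2 (0 counts remain, so this size depends on the prior count) and, scaled to the receptor background, Camp -0.58, Ltf -0.0051, Ly6g -0.81, Cxcl1 -0.52, Il1b -0.23 and the median of all genes -0.93. The cause was not tested.

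Against 25 genes higher, 54 lower and 1 member higher, calls were 41 higher and 56 lower with upper-quartile factors, 17 and 14 with RLE factors, 8 and 5 with library totals alone, 6 and 667 by DESeq2, 41 and 136 by limma-voom, and 27 and 124 with at least 10 counts in each library. The older quasi-likelihood form of edgeR, added after seeing the data, gave 3 and 5. In edgeR, calls were 0 and 0 with TMM factors from genes above background (5695 and 759 at unadjusted p under 0.05), without a filter (3185 and 1996), for genes above background fitted alone (781 and 693) and, added after seeing the data, with scaling to the receptor background (281 and 4992). Upper-quartile factors, limma-voom and the 10-count filter kept 1 member called, and the other settings named here gave 0, of which unadjusted p under 0.05 held for 5 with RLE factors, 7 with library totals, 7 with factors from genes above background, 2 by DESeq2, 6 without a filter, 1 of 1 tested above background, 6 in the older form and 0 with receptor scaling. DESeq2 gave no adjusted p for the 8 members other than Hdc. The members' median was 2.84 with library totals, 3.64 for Retnlg alone above background and 0.52 with receptor scaling.

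Leaving out 1 library, where the lone sample of a group is assumed to vary like the others, gave 4 to 2533 genes higher, 0 to 294 lower, 0 to 1 members higher and a members' median of 0.47 to 2.44. Camp ran from -7.43 to 1.34. The highest counts came without Vaseline 1, the lowest count of higher genes and the lowest median without imiquimod 2.

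Replicate numbers do not pair the samples in the labels, and deviations of same-numbered samples correlated at -0.297 over 39439 genes. A fit with the replicate block gave 1 gene higher and 0 lower, with 0 members called (4 at unadjusted p under 0.05). The crossed block, added after seeing the data, gave 0 higher and 0 lower genes and 0 members (3420, 4880 and 5 at unadjusted p under 0.05). With counts of 12 to 73 on single members in imiquimod 1 and 0 for Camp, apart from Hdc, depth limits what that library can show.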
